A study of Caenorhabditis elegans with 12 samples.

Results

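The fbxa and fbxc genes of Caenorhabditis elegans encode F-box proteins, and 270 of the 21982 genes in the deposited table carry one of these names, 221 of them fbxa and 49 fbxc. The families were chosen from earlier Green against Red values of the same 12 libraries, over all libraries and per batch, so their folds, intervals and calls in that comparison are given as a description and support nothing. Whole worms of strain KH2235, which carries a splicing reporter made from a ret-1 minigene, were separated on day 6 into mostly GFP worms (Green) and mostly mCherry worms (Red). Both groups therefore share the strain, the reporter and the age, and each group had 6 libraries, with 1 Green and 1 Red library in each of 6 batches. The labels name no promoter for the reporter, and nothing in them tells whether each library had its own culture, so the spread between libraries may be technical. The tissue is the whole body, so a lower count can stand for fewer cells of a type or for less RNA per cell, and these cannot be told apart.

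F-box proteins are the part of the SCF ubiquitin ligase that binds the substrate. A cullin scaffold (CUL-1) carries the RING protein RBX-1 and a Skp1-related adaptor (SKR), the F-box of the F-box protein binds that adaptor, and the rest of the protein picks the target that is to be ubiquitinated. C. elegans has many more F-box genes than most animals, many of them young, fast-evolving copies in tandem clusters, and for most of them no substrate is known. Many FBXA proteins join the F-box to an FTH domain, named after the germline regulator FOG-2. FBXA-75 and FBXA-158 have been described in C. elegans as partners of CUL-6 in a ligase of the intracellular pathogen response, the transcriptional answer to microsporidia and viruses in the intestine.

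Recovered totals ran from 30185155 to 87141961 reads per library. Of the members, 59 are annotated as pseudogenes (51 fbxa, 8 fbxc), and none was at 0 in all 12 libraries. The fit took in the 193 members whose mean reached 10 normalized counts, 154 fbxa and 39 fbxc. The other 67 fbxa and 10 fbxc stayed below this filter, with no library above 22.5 normalized counts for fbxa or 24.9 for fbxc. Among them the Red mean was the higher for 55 fbxa and for 10 fbxc. Members can pass the filter through the group in which they are high, as for 8 fbxa and 2 fbxc whose Red mean alone reached 10, and 4 fbxa whose Green mean alone did. The filter lay between fbxa-175 (mean 9.51) and fbxa-137 (10), and between fbxc-7 (8.95) and fbxc-15 (11.4). Red replicate 6 differed from the other Red libraries in many genes, and results that rest on it are also given without it.

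The fbxc genes were mostly lower in Green. Of 39 tested, 24 were called lower and 3 higher (limma, Benjamini-Hochberg adjusted p under 0.05 over all 14618 genes tested), which is 61.5% and 7.69%; of all genes tested 20.1% were called lower and 19% higher. The median log2 fold, Green against Red, was -0.99 for fbxc and 0.04 for all genes. Of the called genes, 19 fbxc genes were lower by at least 2-fold, beside 1285 of all 14618 genes tested. All Green libraries lay below all Red libraries for 23 fbxc genes, an arrangement that 9.71% of all genes showed. The reverse held for 0 fbxc genes (7.06% of all genes). In 6 of 6 batches 26 fbxc genes were lower in the Green library and 3 were higher, against 20.2% and 21.1% of all genes. Because the contrast chose the family, nothing is read from these shares.

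**Figure D1:**
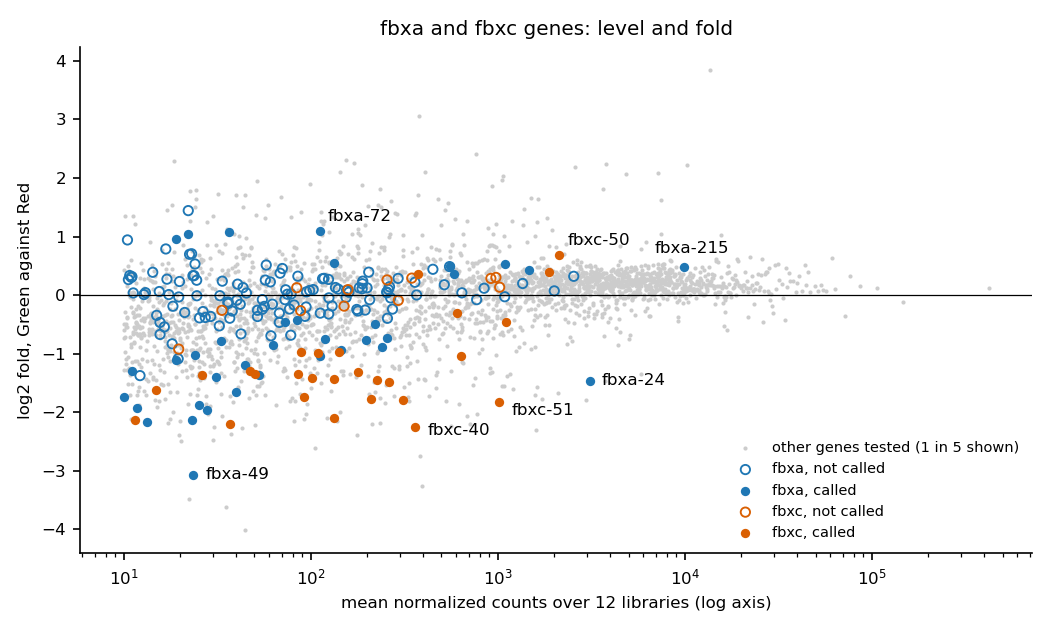
Mean normalized counts over 12 libraries (x axis, log scale) against the log2 fold of Green over Red (y axis) for fbxa genes (blue), fbxc genes (orange) and 1 in 5 of the other tested genes (grey); filled points were called. Most fbxc points lie below 0, with a median of -0.99, while fbxa points lie on both sides with a median of -0.02, and fbxa-24 is the low point at a mean of 3096.

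fbxc-40 (II, 986003 to 988670, WBcel235) had the lowest log2 fold of the family. Its 6 Green libraries held 84.9 at the lowest, 112 at the median and 168 at the highest, and the Red libraries 335, 629 and 846 normalized counts. No Green library reached the Red range, and the log2 fold was -2.25 with a standard error of 0.22. fbxc-34 (II, 931171 to 932327) was a lower-expressed gene with 4.99, 14 and 20 in Green and 40.7, 56.8 and 84.8 in Red. Its log2 fold was -2.21 with a 95% interval from -2.85 to -1.57. fbxc-57 (II, 950842 to 952843), annotated as a pseudogene, had 31.3, 49.4 and 62.1 in Green and 105, 235 and 267 in Red. It too had separate groups, at a log2 fold of -2.10 ± 0.24 (SE). fbxc-15 (II, 979423 to 980825), the tested fbxc gene nearest the filter, had 1.22 to 8.06 normalized counts in Green and 14.5 to 23.2 in Red, a log2 fold of -2.13 ± 0.37 (SE).

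2 well-expressed fbxc genes outside the main cluster complete the lowest 6. fbxc-51 (II, 868814 to 871699) had 323, 431 and 550 normalized counts at the lowest, median and highest Green library and 1022, 1596 and 2251 in Red. The lowest Red library lay far above the highest Green one, and the log2 fold was -1.83 with a 95% interval from -2.26 to -1.39. fbxc-25 (II, 2294645 to 2296265) had 78.2, 145 and 180 in Green and 357, 489 and 620 in Red, at -1.79 ± 0.20 (SE). Both were lower in Green in 6 of 6 batches.

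The fbxc genes called higher were among the more abundant ones. fbxc-50 (II, 3246316 to 3248123) had 2399, 2483 and 3130 normalized counts in Green and 1181, 1584 and 2596 in Red, a log2 fold of 0.68 ± 0.17 (SE). Its groups overlapped through Red replicate 6 alone, at 2596, and the log2 fold was 0.82 without that library. fbxc-44 (II, 4236504 to 4237751) had 1838, 2049 and 2474 in Green and 1142, 1588 and 2216 in Red, at 0.39 ± 0.13 (SE). fbxc-42 (II, 991600 to 993179) had 380, 421 and 471 in Green and 283, 317 and 438 in Red, at 0.35 ± 0.12 (SE). The call of fbxc-44 was lost in edgeR, with quantile normalization and on leaving out any one of Green replicates 3 and 5 and Red replicates 2 and 4. That of fbxc-42 was lost on leaving out any one of replicates 2, 4 and 5 of either group. Per kilobase of exon, the mean levels of fbxc-50, fbxc-44 and fbxc-45 were 1921, 1904 and 954 normalized counts, the 3 highest of the family, and the log2 fold of fbxc-45 was 0.14 (interval -0.04 to 0.31). The median level per kilobase was 96.4 for the 24 genes called lower, 201 for the 12 not called and 1904 for the 3 called higher.

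The sum over the family hid this split. Summed over 49 fbxc genes, Green libraries held 12834 to 14033 and Red libraries 14570 to 17205 normalized counts, so the groups did not overlap and the ratio of the means was 0.826. The 24 genes called lower summed to 3105 to 3989 in Green and 6144 to 10085 in Red, a ratio of 0.433. The remaining 25 genes summed to 8980 to 10928 in Green and 6912 to 8994 in Red, a ratio of 1.25, and these ranges overlapped only between 8980 and 8994. These sums were split by the calls and carry no test.

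The fbxa genes, unlike fbxc, had a median log2 fold close to that of all genes. Of 154 tested, 26 were called lower, 10 higher and 118 neither (16.9% and 6.49%, beside the 20.1% and 19% of all genes). The log2 folds ran from -3.07 to 1.44 with a median of -0.02. The groups did not overlap for 11 fbxa genes lower and 1 higher in Green, beside 9.71% and 7.06% of all genes. In 6 of 6 batches 24 of the 154 were lower and 14 higher, beside 20.2% and 21.1% of all genes. Both fbxa shares lie below those of all genes, so neither count is a result about the family. Of the 33 tested fbxa pseudogenes 5 were called lower, and of the 121 protein-coding ones 21.

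The lowest fbxa folds belonged to genes with few counts. Of the 26 fbxa genes called lower, 7 had a Green mean under 10 and so passed the filter through Red. Among these were fbxa-49, fbxa-50, fbxa-155, fbxa-47, fbxa-154 and fbxa-137. Of the 10 called higher, 0 had a Red mean under 10. The filter thus had a part in which low folds are seen. fbxa-49 (III, 1289747 to 1290938), a pseudogene, had 0.00, 4.90 and 9.67 normalized counts at the lowest, median and highest Green library and 21.8, 38.3 and 69.6 in Red. Every Red library lay above every Green one, and the log2 fold was -3.07 ± 0.52 (SE), or -2.98 in edgeR, which uses no added pseudocount of this kind. Its neighbour fbxa-50 (III, 1287299 to 1288523) had 4.99, 10.8 and 12.5 in Green and 15.1, 44.5 and 83.8 in Red, at -1.97 ± 0.36. fbxa-155 (III, 10007966 to 10010217) had 1.25 to 4.99 in Green and 12.1 to 44.4 in 5 Red libraries, with 2.52 in Red replicate 6, so that this library alone overlapped the Green range. Its log2 fold was -2.17, and -2.64 without Red replicate 6. fbxa-47 (III, 2229992 to 2232460) had 4.83, 6.46 and 18.9 in Green and 19.7, 39.3 and 52.5 in Red, at -2.14 ± 0.33.

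fbxa-154, fbxa-136 and fbxa-137 on chromosome V and fbxa-103 on chromosome I complete the lowest 8. Their log2 folds were -1.92, -1.88, -1.74 and -1.66. fbxa-136 (V, 17521035 to 17527479) had 8.25 to 12.1 normalized counts in Green and 23.9 to 58.9 in Red, with separate groups. fbxa-154 was at 0.00 to 8.77 in Green and 7.25 to 29.3 in Red, and the groups overlapped; its call was lost with quantile normalization.

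fbxa-24 stood out among the lower fbxa genes by its level. fbxa-24 (II, 3816526 to 3818238) had 1222, 1607 and 2267 normalized counts at the lowest, median and highest Green library and 2700, 4416 and 7408 in Red. All Red libraries exceeded all Green ones, in 6 of 6 batches, and the log2 fold was -1.47 (interval -1.93 to -1.01). Its mean of 1858 per kilobase of exon was the third highest of the fbxa genes. The neighbouring pseudogene fbxa-146 (II, 3814376 to 3815458) had 122 to 159 in Green and 185 to 348 in Red, at -0.77 ± 0.16 (SE).

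The fbxa genes called higher included the most abundant member. fbxa-215 (IV, 13665364 to 13666909) held 25% of all fbxa counts, at a mean of 7317 normalized counts per kilobase. It had 9981, 11348 and 12395 in Green and 5122, 8511 and 11502 in Red, a log2 fold of 0.47 ± 0.15 (SE), or 0.34 without Red replicate 6. Its call was lost with quantile normalization, without Green replicate 3 and without Red replicate 4. fbxa-72 (V, 674886 to 676753) was the one fbxa gene with every Green library above every Red one. It had 132, 146 and 180 in Green and 35.2, 68.4 and 125 in Red, a log2 fold of 1.10 ± 0.25 (SE). fbxa-14, fbxa-187, fbxa-190 and fbxa-181 followed at 1.08, 1.04, 0.96 and 0.54, all with overlapping groups. The calls of fbxa-181 and fbxa-187 were each lost under 13 alternatives, edgeR among them. That of fbxa-190 was lost without batch 6 and on leaving out any one of Green replicates 2, 5 and 6 and Red replicates 4 and 5. fbxa-210 (V, 18125375 to 18127205), the second in level at 1920 per kilobase, was at 2511 to 3078 in Green and 1050 to 3177 in Red and was not called.

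Most members lie in clusters. Members less than 20 kb apart formed 37 clusters with 205 members, 16 of them with at least 4, and 65 members stood alone. 40 of 49 fbxc genes lie on chromosome II, and 22 of the 32 tested there were called lower (68.8%), with a median log2 fold of -1.32. Of the 6 tested on chromosome IV 2 were called lower (33.3%), with a median of 0.20. The chromosomes were not compared by a test. The largest fbxc cluster (II, 904425 to 993179) holds 23 fbxc genes and the pseudogene fbxa-200. Of its 20 tested members 14 were called lower and 1 higher, with a median of -1.40. Of all genes 20.1% were called lower and 19% higher. Because the contrast chose the family, nothing is read from the counts by chromosome or cluster. Within it fbxc-33, at 249 to 353 normalized counts in Green and 290 to 317 in Red, was not called (log2 fold -0.09), while its neighbour fbxc-29 had a log2 fold of -1.44. fbxc-32 was at 0.30 and was not called, next to fbxc-41 at -1.35. fbxc-42, called higher, lies beside fbxc-39 at -1.77.

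Of the genes of other families inside this fbxc cluster, 7 were tested and 5 were called lower, with a median log2 fold of -1.39: the C-type lectin pseudogene clec-44 at -1.13, the acyl-CoA synthetase gene acs-15 at -1.67, sdz-4, named as a zygotic transcript that depends on SKN-1, at -1.39, and C32B5.18 and C32B5.15 at -2.14 and -1.70. The lectin gene clec-43 at 0.30 and C32B5.6 at -0.65 were not called. Over all 16 clusters of at least 4 members, 37 of 123 tested members and 18 of 57 tested other genes between them were called lower (30.1% and 31.6%, beside 20.1% of all genes), and 4 and 4 higher.

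**Figure D2:**
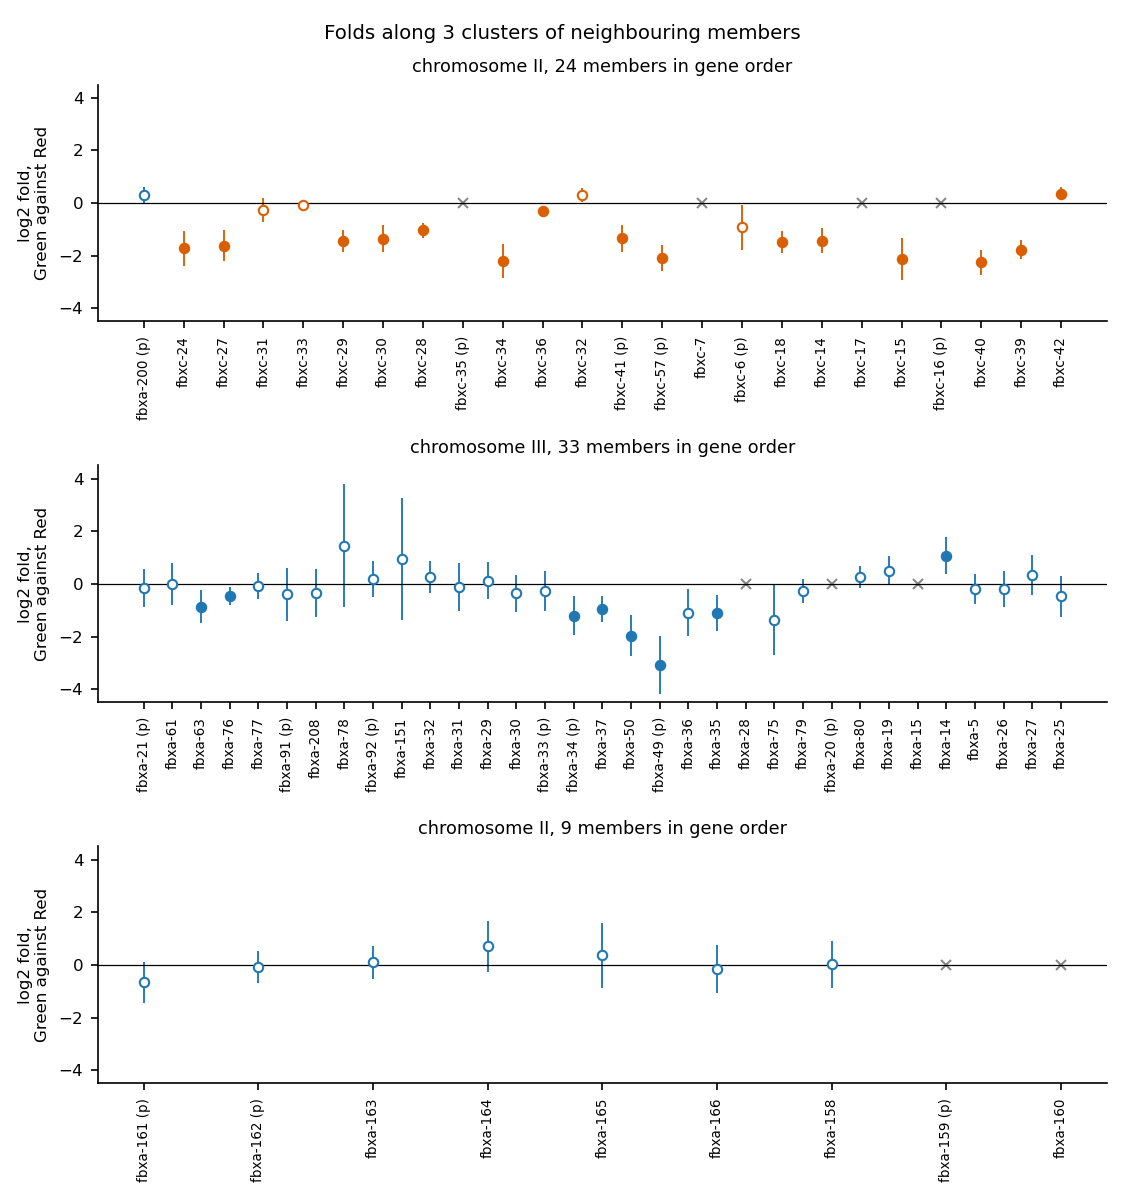
Log2 fold of Green over Red (y axis) with 95% intervals for members in their order along 3 clusters (x axis); filled points were called, crosses at 0 mark members below the filter, (p) marks pseudogenes, and orange is fbxc, blue fbxa. The first cluster is mostly below 0, with exceptions such as fbxc-33 and fbxc-42; the second is low in the stretch around fbxa-49; in the third no gene was called.

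The largest cluster of all (III, 1236015 to 1349450) holds 33 fbxa genes. Of 30 tested, 7 were called lower and 1 higher, with a median log2 fold of -0.23. Of all genes 20.1% were called lower and 19% higher, so the count of lower calls is no result about the cluster. The stretch from fbxa-34 to fbxa-35 was picked out after its values had been seen, and bunching was not tested. Its 6 genes in a row had log2 folds of -1.20, -0.94, -1.97, -3.07, -1.09 and -1.11, and all but fbxa-36 were called. fbxa-34 had 6.66 to 37.9 normalized counts in Green and 39.0 to 81.7 in Red, and fbxa-37 had 68.4 to 120 and 91.8 to 273. Further along, fbxa-75 (III, 1303714 to 1305461), the CUL-6 partner, had 0.00, 6.58 and 12.9 in Green and 5.03, 18.2 and 33.3 in Red. The groups overlapped, and its log2 fold of -1.38 (interval -2.70 to -0.05) was not called, although the Green library was the lower one in 6 of 6 batches. A fit with a batch block, DESeq2 and the fit without Red replicate 6 each called it. fbxa-14 (III, 1322124 to 1324613), in the same cluster, was called higher, with 33.3 to 82.7 in Green and 10.7 to 37.3 in Red.

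In 5 pairs both members of a cluster have annotated spans of the same length. Their sequences were not compared here, and how the counting treated reads that fit more than 1 gene is not given in the sources used here. fbxa-78 and fbxa-151 on chromosome III each span 1277 bases, and their counts alternated between libraries: Green replicate 6 had 0.00 of fbxa-78 and 28.8 of fbxa-151, Green replicate 2 had 33.8 and 0.00. fbxa-78 was listed at 0 in 3 libraries and fbxa-151 in 5. The log2 fold of fbxa-78, 1.44, was the highest of all members tested; it was not called, and its interval runs from -0.89 to 3.78. In a cluster on chromosome IV (899543 to 911196), fbxc-4 and fbxc-5 share a length of 1376 bases and had log2 folds of 0.29 and 0.26, while fbxc-12 and fbxc-8 share 1782 bases and had -0.98 and -0.97. Summed, the second pair ran from 98.2 to 189 normalized counts in Green and from 226 to 395 in Red, so the groups were separate for the pair as a whole. In all, 35 members overlap another annotated gene, 21 of them on the opposite strand, among these fbxa-78, which overlaps fbxa-208. Whether counting used strand is not given in the sources used here, so those values may hold reads of the other gene. fbxc-26 and fbxc-20 each overlap another gene on the same strand, where strand would not tell the reads apart.

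The median fbxa gene was low in Red replicate 6, and the median fbxc gene was not set apart. Each library was set against the median of the other 5 libraries of its group on the log2 scale. In Red replicate 6 the median fbxa gene lay at -1.07, and in the other 11 libraries it lay between -0.27 and 0.26. For fbxc the Red replicate 6 value was -0.19, inside the range of the other libraries, and for all genes it was -0.01. The fbxc value was -0.1 for the 24 genes called lower, 0.49 for the 3 called higher and -0.47 for the 12 not called. For all genes not called it was -0.04. Of the 12 fbxc genes not called, 10 lay below the median of the other Red libraries in Red replicate 6. At least 2-fold below the other Red libraries in that replicate were 82 of 154 fbxa genes (53.2%) and 3 of 39 fbxc genes (7.69%), beside 13.8% of all genes tested. Red replicate 6 was the lowest of all 12 libraries for 78 fbxa genes (50.6%) and 6 fbxc genes (15.4%), beside 23.4% of all genes. The third F-box family, fbxb, shared the fbxa pattern, with a median of -1.12 and 58 of 100 genes at least 2-fold lower.

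**Figure D3:**
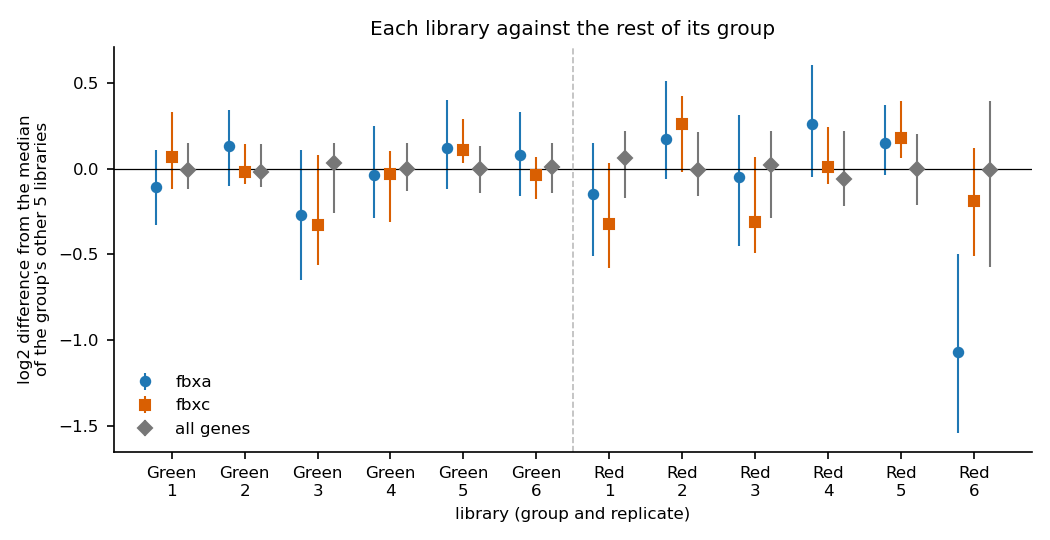
For each library (x axis) the log2 difference from the median of the other 5 libraries of its group (y axis), as the median (symbol) and quartiles (line) over 154 fbxa genes, 39 fbxc genes and all 14618 genes tested. The fbxa symbol of Red replicate 6 stands at -1.07, apart from all others.

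Of 15 fbxa genes whose mean reached 500 normalized counts, 12 had their lowest Red value in replicate 6 and 4 lay at least 2-fold below the median of the other Red libraries. Of 9 such fbxc genes 3 had their lowest Red value there, and 0 lay 2-fold below. fbxa-210 had 1050 there and 2160 to 3177 in the other Red libraries, and fbxa-108 had 297 and 603 to 849. fbxa-101 had 1125 and 1946 to 2321. In the other direction, fbxc-52 had 1819 in Red replicate 6 and 1033 to 1360 in the other Red libraries. fbxa-206, fbxa-170 and fbxa-95 lay inside the range of the other Red libraries.

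The fbxa median had another sign in batch 6. In batches 1 to 5 the median fbxa difference between the Green and the Red library was -0.16, -0.17, -0.35, -0.39 and -0.18, with 57.1% to 74.0% of genes lower in Green, and in batch 6 it was 0.76 with 22.1% lower. The fbxc median was -0.52, -1.25, -1.34, -1.02, -1.06 and -0.87 in batches 1 to 6. Over all genes tested the median lay between 0.01 (batch 1) and 0.06 (batch 4) in batches 1 to 5. In batch 6 the all-gene median was -0.02, with 51.4% lower in Green. The fbxb median was negative in all 6 batches, from -1.85 in batch 2 to -0.4 in batch 6, where 71% of fbxb genes were lower. Summed fbxa counts were 37442 to 42595 in Green, 38745 to 45916 in 5 Red libraries and 24114 in Red replicate 6. Without Red replicate 6, 42 fbxa genes were called lower and 10 higher, with a median of -0.21, and 26 fbxc genes lower and 4 higher, with a median of -1.06. More genes passed overall in that fit too, 25.5% lower and 29.3% higher. Of 9 marker lists, 5 had a higher summed count in Red replicate 6 than in any other Red library. For germline the sum was 254623 there and 152700 to 212302 in the others, and for oocytes 973848 and 482173 to 781333. For intestine it was 63476 and 33505 to 51983, for embryo 24328 and 19733 to 21444, and for neurons 20378 and 16325 to 19585. Most of the intestine sum in Red replicate 6 came from asp-1 (25573) and cpr-1 (24423). In the same library 3 of the 11 intestine markers had their lowest value of all 12 libraries. Sums of the larval moult, sperm, epidermis and muscle lists lay inside the range of the other Red libraries. The part of these tissues in the fbxa values was not tested.

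A test of the batches that does not use the Green against Red difference passed 2 neighbouring fbxa genes. It was added after the data had been seen and asks whether a gene differs among the 6 batches once the group is in the model (limma F test, Benjamini-Hochberg over 14618 genes); 2 of the 193 tested members passed (1.04%), a share near the 0.718% of all genes, so the count is no result about the families. fbxa-192 (V, adjusted p = 0.00094) had 65.3 and 64.1 normalized counts in the Green and Red library of batch 1, 261 and 203 in batch 2, 380 and 427 in batch 3, 292 and 241 in batch 4, 389 and 374 in batch 5, and 166 and 196 in batch 6. The partners of a batch lay close together while the batch means spanned 6.23-fold. Its neighbour fbxa-193, a pseudogene (adjusted p = 0.030), followed the same order, with 47.9 as the mean of batch 1 and 223 as that of batch 3. In edgeR's quasi-likelihood test fbxa-192 alone of the members passed.

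Of the 5 members of their cluster, fbxa-191, fbxa-129 and fbxa-108 did not pass, at limma adjusted p of 0.19, 0.40 and 0.44. All 5 members (V, 17637982 to 17659385) had Green against Red log2 folds between -0.04 and 0.05. Batch 1 had the lowest mean for fbxa-191, fbxa-192, fbxa-193 and fbxa-129, and batch 3 the highest. For fbxa-108 batch 6 was lowest and batch 5 highest, with a span of 1.70-fold. Without batch 6 the test passed 8 members (4.15%), a share near the 3.69% of all genes, and these were fbxa-192, fbxa-193, fbxa-107, fbxa-165, fbxa-158, fbxa-182, fbxa-24 and fbxa-79.

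No gene in the cluster of the other CUL-6 partner passed the batch test with all libraries. fbxa-158 (II, 1619814 to 1621280) had 80.6 and 78.9 normalized counts in the Green and Red library of batch 1, 73.9 and 118 in batch 2, 28.3 and 24.2 in batch 3, 117 and 153 in batch 4, 71.9 and 61.6 in batch 5, and 57.0 and 35.2 in batch 6. The Green against Red log2 fold was 0.02 (interval -0.89 to 0.92), and its batch test gave an adjusted p of 0.063 (limma F test). Of the 7 tested genes of its cluster (II, 1606595 to 1624672), none was called between Green and Red, batch 3 had the lowest mean for 5 and batch 6 for 2, and batch 4 the highest for 6. fbxa-165 spanned 6.05-fold between batches 3 and 4.

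The intracellular pathogen response genes had the same batches at their ends. Batch 3 was lowest for 9 of 11 genes and batch 4 highest for 7; over all genes tested these shares were 19.8% and 14.1%. pals-6, a gene induced in that response, passed the batch test (adjusted p = 0.038), with a mean of 80.5 in batch 3 and 355 in batch 4. The order was not particular to this response. The intestine marker ifb-2 passed too (limma F test, adjusted p = 0.038). It was lowest in batch 3, at 946 (Green) and 1142 (Red), and highest in batch 4, at 1705 and 2481. The batch test passed 3 of 11 intestine and 4 of 10 epidermis markers, not all with this order, beside 0.718% of all genes. fbxa-75 was lowest in batch 3 too, at a mean of 3.02, and highest in batch 2, at 21.7. The clusters were set beside this list after their values had been seen, and the likeness was not tested.

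**Figure D4:**
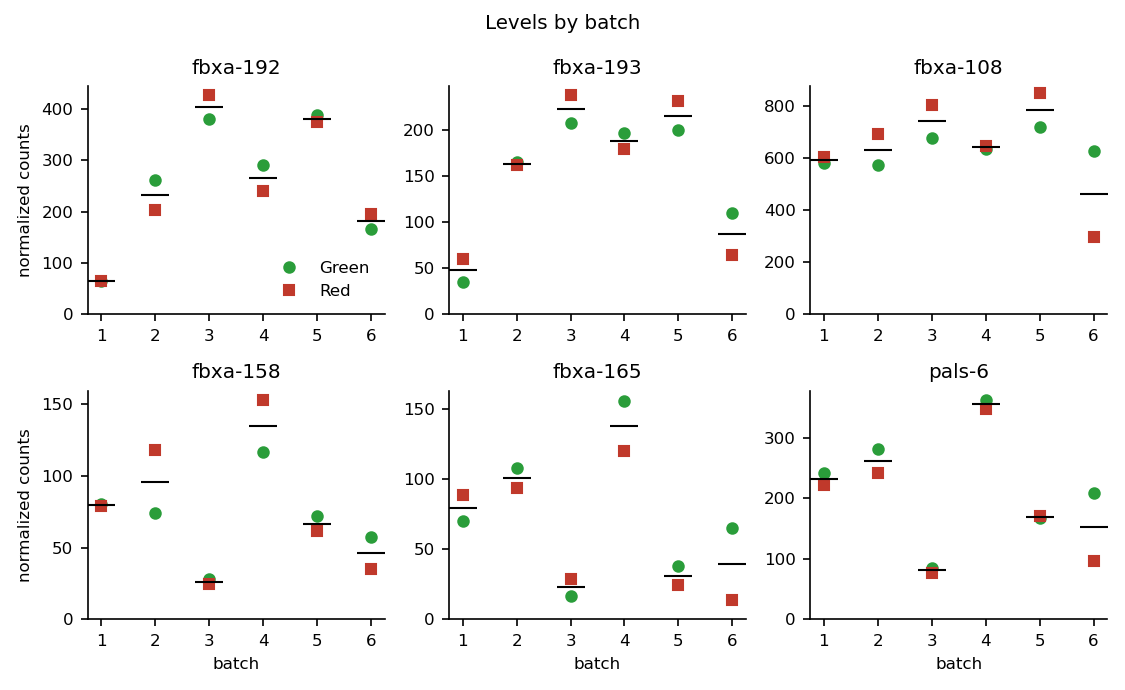
Normalized counts (y axis) in the Green (circle) and Red (square) library of each batch (x axis) for 5 fbxa genes and pals-6, with the batch mean as a bar. fbxa-192 and fbxa-193 are lowest in batch 1; fbxa-158, fbxa-165 and pals-6 are lowest in batch 3 and highest in batch 4; fbxa-108 is low in Red replicate 6.

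The adaptors that F-box proteins bind also differed, while the core pair was not called. Of 24 listed genes for SCF scaffolds and Skp1-related adaptors, 23 were tested, and skr-6 was below the filter. In Green 11 fell and 3 rose (limma, adjusted p under 0.05), with a median log2 fold of -0.55 beside 0.04 for all genes. These are 47.8% and 13%, beside 20.1% of all genes called lower and 19% called higher. The share that rose lies below that of all genes, and the list was chosen with earlier results of these data known. skr-21 fell the most: it had 230, 336 and 370 normalized counts in Green and 675, 964 and 1365 in Red, a log2 fold of -1.57 ± 0.18 (SE, limma adjusted p = 5.2e-05). The adaptor genes skr-7, skr-8, skr-9 and skr-10, needed for normal larval growth and body form, fell by 0.92, 1.03, 0.93 and 0.96 on the log2 scale. skr-12, skr-13, skr-14, skr-15, skr-19 and skr-20 fell by 0.71 to 0.99. Close adaptor copies may share reads. skr-11, skr-4 and skr-17 rose, at 0.55, 0.38 and 0.38, and skr-11 is annotated as a pseudogene. The skr-4 call was lost in edgeR and on leaving out any one of Green replicates 2, 4 and 5 and Red replicate 5.

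The general parts of the ligase were not called. cul-1, the scaffold, had 9285 to 10006 normalized counts in Green and 8753 to 11826 in Red, and its log2 fold was -0.04 (interval -0.19 to 0.12). skr-1 and skr-2, the abundant adaptors that serve CUL-1, had log2 folds of -0.13 and 0.01, and rbx-1 0.02. cul-6 had 125, 168 and 229 in Green and 124, 229 and 438 in Red, and its log2 fold was -0.55 (limma adjusted p = 0.10). It passed in DESeq2, in the fit with a batch block and in the fit without Red replicate 6. Its partners skr-3 and skr-5 were not called, at -0.16 and near 0.

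**Figure D5:**
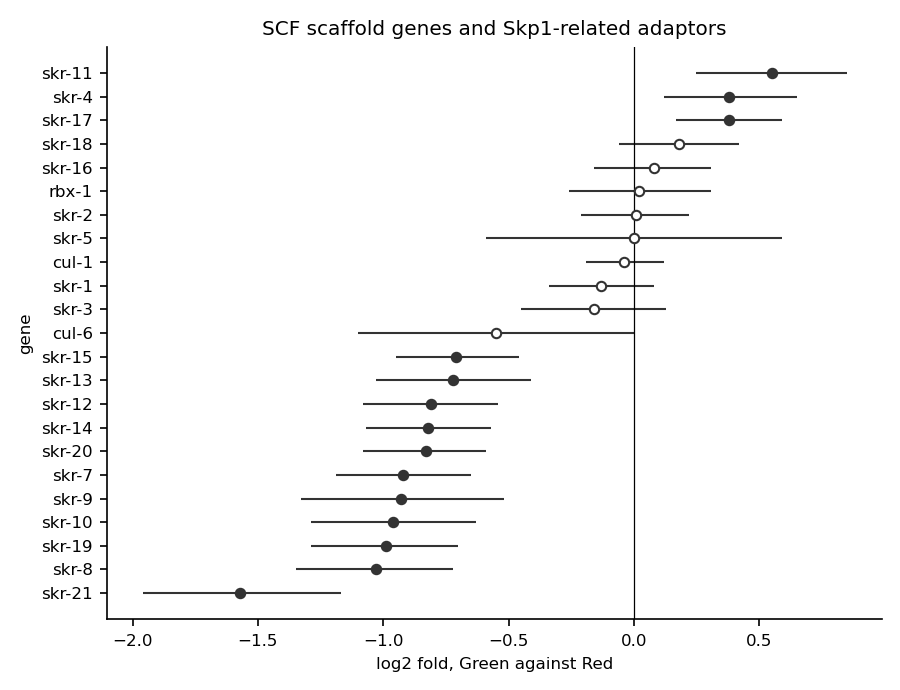
Log2 fold of Green over Red (x axis) with 95% intervals for 23 SCF scaffold and Skp1-related adaptor genes (y axis); filled points passed the limma test. 11 adaptors lie below 0, from skr-15 at -0.71 to skr-21 at -1.57, and cul-1, rbx-1, skr-1 and skr-2 lie near 0.

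Several F-box genes of other kinds rose. Of 11 listed F-box genes outside the fbxa, fbxb and fbxc families, 6 rose and 1 fell, with a median log2 fold of 0.28. These are 54.5% and 9.09%, beside 19% of all genes called higher and 20.1% called lower. lin-23, which limits cell division, sel-10, which acts on Notch, fsn-1, which shapes synapses, mec-15, prom-1, which acts in meiosis, and skpt-1 rose by 0.26 to 0.54, and mfb-1 fell by 0.80 on the log2 scale. In the neddylation and COP9 signalosome list, which switches cullins on and off, csn-5 and ubc-12 rose of 13 tested, at 0.22 and 0.35, which is 15.4%, below the 19% of all genes. The csn-5 call was lost with quantile normalization and on leaving out any one of Green replicates 1, 2, 3 and 5 and Red replicates 2, 4 and 5. The ubc-12 call was lost with quantile normalization too, and when Green replicate 2, 3 or 4 or one of the same Red replicates was left out. In the ubiquitin core uba-1, the activating enzyme, and cdc-48.1 rose of 6 (33.3%, beside 19% of all genes), at 0.31 and 0.44. The uba-1 call was lost with quantile normalization. Of 11 intracellular pathogen response genes pals-22 and pals-25, regulators of that response, fell, at -0.63 and -0.67, and skr-4 rose, its call being lost in the settings named above. The shares of this list, 18.2% lower and 9.09% higher, lie below those of all genes. The fbxb genes, the closest family to compare, were called lower for 87 of 100 tested and higher for 0, with a median log2 fold of -1.32. The difference between the families was not tested.

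Counts of called markers are to be read beside the 20.1% of all genes called lower and the 19% called higher. In Green 10 of 12 germline and 11 of 12 oocyte markers rose, at medians of 0.40 and 0.59. Of 14 tested embryo markers 8 fell and 3 rose, with summed counts of 18771 to 21002 in Green and 19733 to 24328 in Red, and end-1 and hlh-27 were below the filter. Of 14 larval moult markers 11 fell and 1 rose, with sums of 6814 to 9648 in Green and 10771 to 21301 in Red. Of 10 neuron markers 6 fell and 0 rose. Of 11 intestine markers 3 rose and 1 fell, of 10 muscle markers 6 rose and 1 fell, and of 10 epidermis markers 1 rose and 2 fell. Of 14 sperm markers 5 passed the filter and spe-4 fell. No marker was at 0 in all 12 libraries, and the part of these tissues in the fbxa and fbxc values was not tested.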

How the data were processed

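Messenger RNA of whole worms was sequenced in 12 libraries. A Qiagen miRNeasy extraction and a stranded Roche Kapa mRNA library kit were used, per the labels' protocols. The submitters' processing notes name Salmon 0.14.2, STAR, DESeq2, FastQC 0.11.8, MultiQC and the build WBcel235, without settings. The authors deposited a normalized signal per gene, that is, each library's gene counts over a size factor of its own. Multiplying by the recovered factor gave whole reads for 100% of values (tolerance 0.001), though for Red replicate 2, whose factor lies close to 1, this says less. 0 value columns were left unused.

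Genes with a mean of at least 10 were fitted with limma 3.58.1 (R 4.3.3, empirical Bayes with a trend) on log2(value + 1), Green against Red, with p adjusted by Benjamini-Hochberg over all genes. The added 1 draws the folds of low genes toward 0. A gene is called where the adjusted p is under 0.05. edgeR 4.0.16 and DESeq2 1.42.0 on the recovered reads were alternatives. The limma fits, with and without the batch block, and the limma batch test were tested on simulated data. Members were matched by gene name and placed with Ensembl 115, in which all 270 were found; 1 member has another name there. The text names the 8 fbxa and 6 fbxc genes called with the lowest and up to 5 each with the highest fold, the 3 highest per kilobase of exon in each family, fbxa-75, fbxa-158, fixed pathway genes, up to 3 called genes of each other pathway list and the members beside the filter; other genes, among them cluster neighbours and those named for a batch or Red replicate 6, were chosen after their values were seen. The members and the lists were chosen with earlier results of these data known.

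In the labels a batch number belongs to 1 Green and 1 Red library. Deviations from the group means correlated within every batch, by 0.108 to 0.366 across genes. The mean between batches, -0.047, is made negative by centring each group on its own mean, so it is no separate comparison. The batch numbers of the labels were used to pair the libraries. No sequence was used here. Counting error is small at these depths for all but low genes. For the other genes the number of libraries limits the precision. Figures used Python 3.11.15, numpy 2.4.6, pandas 2.3.3 and matplotlib 3.10.9.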

Additional observations from a re-analysis of the deposited data

Results flagged for a closer look

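For the 47 named genes each group of 6 libraries was searched for a library whose gap to the nearest other exceeded Dixon's critical share of the group's range. Chance alone marks about 1 in 20 groups, and 6 of 94 were marked. Among the members, fbxa-103 had 4.99 normalized counts in Green replicate 3 and 18.9 to 26.8 in the other Green libraries. fbxa-47 had 18.9 in Green replicate 5 and 4.83 to 8.69 in the others. fbxc-50 had 3130 in Green replicate 3 and 2399 to 2611 in the others. fbxc-7, below the filter, had 14.6 in Green replicate 4 and 3.26 to 6.66 in the others. Among the SCF genes, Red replicate 6 had 8051 of rbx-1 (4079 to 5384 in the others) and 13967 of skr-1 (8708 to 10194).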

How the results depend on the processing

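The fbxc genes called lower numbered 19 to 25 over the alternatives that kept all libraries, and 24 of the 24 were shared with edgeR and DESeq2. The 19 came with a mean of at least 50, where 32 fbxc genes were tested, and all 19 were among the 24. With the batch as a replicate block, pairing the libraries, 5 fbxc genes were called higher against 3, 30 fbxa genes lower and 12 higher, 25 fbxc genes lower and 15 SCF genes in all, and fbxa-75 and cul-6 passed; it changed no other call among the named genes. fbxa counts moved more: 17 genes lower and 24 higher with quantile normalization, and 16 higher with median centring. Centring also gave 7 fbxc genes higher and moved the median of all genes from 0.04 to 0.16. With a mean of at least 50, 88 fbxa genes were tested in place of 154. Of these 12 were called lower, all of them among the 26 of the main fit. The fbxa median of -0.02 became 0.20 with quantile normalization, 0.11 with centring, which shifts all genes alike, 0.03 with a mean of at least 50 and -0.19 with no filter, so no sign is read from it. Leaving out single libraries gave 20 to 42 fbxa genes lower, 6 to 12 higher and a median of -0.21 to 0.05, 23 to 26 fbxc genes lower, 1 to 5 higher and a median of -1.10 to -0.95, and 13 to 16 SCF genes. The batch test called 8 members without batch 6 and 1 in edgeR. Of 45 named genes tested, 29 kept their side of the threshold in all settings that tested them and 0 reversed. With a mean of at least 50 only 31 of the 45 were tested, which leaves out low genes such as fbxa-49 and fbxc-15. The cause of the changes was not tested. Low counts, the scaling and Red replicate 6 limit the fbxa values.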
